A study of Mus musculus with 6 samples.

Results

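The 10 genes described here encode proteins that hydroxylate, fold and trim procollagen: P4ha1, P4ha2, P4ha3, P3h1, Plod1, Plod2, Serpinh1, Crtap, Fkbp10 and Pcolce. They were chosen by function, with earlier results of these data known, and matched on gene symbol. All 10 were found among the 54532 genes of the deposited count table. All 10 were also among the 14624 genes that passed the filter on low counts. RNA-seq was performed on wild type mesenchymal stem cells from mouse bone marrow (BMSCs), a primary culture of marrow stromal cells with the capacity to become osteoblasts. All cultures were kept for 7 days in osteogenic medium, which per the sample labels held β-glycerophosphate at 10 mM, ascorbic acid at 50 μg/mL and dexamethasone at 100 nM (the paper's methods give another dexamethasone concentration). The comparison was between 3 libraries grown with nickel ion at 0.1 μM (Ni) and 3 grown without added nickel (Con), and it asks how low-dose Ni alters gene expression in mineralizing cells. The age of the mice and the number of animals behind each library are not given in the sources used here, so the p-values measure the spread between these libraries, which may be technical.

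Procollagen chains are modified in the endoplasmic reticulum before they fold into a triple helix. Prolyl 4-hydroxylases convert prolines to 4-hydroxyproline, which holds the helix together at body temperature, and prolyl 3-hydroxylase and lysyl hydroxylases modify single prolines and lysines, the latter as anchors for sugars and cross-links. These enzymes need ascorbic acid, iron, oxygen and 2-oxoglutarate. Chaperones such as Serpinh1 (HSP47) and Fkbp10 (FKBP65) then assist the folding and export of the helix, and outside the cell the propeptides are cut off so that fibrils can form. Osteoblasts secrete large amounts of type I collagen, and inherited loss of Crtap, P3h1, Serpinh1, Fkbp10 or Plod2 function causes brittle bones.

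Totals ranged from 16101033 to 18642504 counts per library. Control replicate 3 lay apart from the other controls for these genes. It was the highest control for 10 of the 10 genes, whereas it was the highest control for 39.4% of all genes tested. Its log2 CPM (CPM, the count relative to the library total, with TMM factors applied) exceeded the mean of control replicates 1 and 2 by 0.09 for Plod1 to 0.89 for P4ha2, with a median of 0.67. Ni replicate 2 was the lowest Ni library for 8 of the 10, and how often this held over all genes was not counted. The cultures also held macrophage transcripts. The 12 macrophage markers summed to between 24481 and 28475 CPM in Con and between 24004 and 24695 CPM in Ni, and 4 of the 12 were lower in Ni at an unadjusted p under 0.05. Lyz2 was the largest single part of that sum and had a log2 fold change (Ni over Con) of 0.02. It was at 10328.5, 9615.5 and 15097.2 CPM in Con and at 12188, 10800.9 and 12595.5 CPM in Ni. The median log2 fold change of the 12 was -0.20, and 3 of them had a positive one. The defining macrophage markers had log2 fold changes (Ni over Con) of -0.36 for Ptprc, -0.35 for Adgre1 and 0.01 for Csf1r. The defining stromal markers Pdgfra and Pdgfrb were present, at mean levels of 66.1 and 92.6 CPM in Con, and had log2 fold changes of 0.07 and 0.21. The 8 stromal markers together summed to between 2288 and 2665 CPM in Con and between 2009 and 2142 CPM in Ni, but that sum was mostly Cxcl12, at 2304, 2143 and 1767 CPM in Con and 1508, 1609 and 1355 CPM in Ni. The other 7 summed to 361, 347 and 521 CPM in Con and to 635, 491 and 654 CPM in Ni, so that their sum was higher in Ni replicates 1 and 3 and overlapped through control replicate 3. Of the 8, 2 were higher and 1 (Cxcl12) lower at an unadjusted p under 0.05, with a median log2 fold change of 0.23. All 7 osteoblast markers were higher in Ni at an unadjusted p under 0.05, summing to between 5312 and 11932 CPM in Con, of which the highest was control replicate 3, and between 11214 and 16323 CPM in Ni. The 4 endothelial markers were low, at 37.3 to 70.2 CPM in sum over all libraries, and 1 of them was lower. The part of cell composition in the results that follow was not tested, and in bulk RNA fewer cells of a type and less RNA per cell cannot be told apart.

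The prolyl 4-hydroxylase α subunit genes and Serpinh1 are shown with the sequence before their transcription starts, since P4ha1 and P4ha2 are textbook targets of hypoxia-inducible factors (HIF), whose response element holds the core ACGTG or GCGTG. P4ha3 encodes another α subunit. The sequences are the 250 bases before the RefSeq start (GRCm38.p6), written 5′ to 3′ on the gene's strand, and the capitals mark ACGTG or GCGTG on either strand, so that CACGT and CACGC are their reverse complements.
P4ha1 (chr10:59323046-59323295, + strand): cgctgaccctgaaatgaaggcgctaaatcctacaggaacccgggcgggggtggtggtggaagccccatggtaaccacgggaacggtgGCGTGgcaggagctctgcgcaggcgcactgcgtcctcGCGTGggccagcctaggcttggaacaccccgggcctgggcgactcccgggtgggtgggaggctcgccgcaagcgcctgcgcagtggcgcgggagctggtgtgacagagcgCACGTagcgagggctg
P4ha2 (chr11:54100674-54100923, + strand): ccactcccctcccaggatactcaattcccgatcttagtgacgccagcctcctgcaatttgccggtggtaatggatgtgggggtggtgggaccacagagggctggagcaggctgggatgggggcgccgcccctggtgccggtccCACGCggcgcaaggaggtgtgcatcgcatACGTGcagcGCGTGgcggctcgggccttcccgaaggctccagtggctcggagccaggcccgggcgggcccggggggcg
P4ha3 (chr7:100285270-100285519, + strand): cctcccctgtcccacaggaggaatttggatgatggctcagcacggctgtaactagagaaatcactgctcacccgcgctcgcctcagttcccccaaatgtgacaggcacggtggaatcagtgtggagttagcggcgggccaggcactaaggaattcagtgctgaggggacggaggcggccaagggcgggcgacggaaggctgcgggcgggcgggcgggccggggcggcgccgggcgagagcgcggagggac
Serpinh1 (chr7:99353240-99353489, - strand): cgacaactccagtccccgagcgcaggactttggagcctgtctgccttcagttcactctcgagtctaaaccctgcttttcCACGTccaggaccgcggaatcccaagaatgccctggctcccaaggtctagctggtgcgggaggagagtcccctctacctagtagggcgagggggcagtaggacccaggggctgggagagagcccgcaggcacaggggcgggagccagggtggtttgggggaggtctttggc
The P4ha2 window begins inside the gene as the deposited table draws it, because the RefSeq start lies 829 bases after the start given there. P4ha1 held 1 ACGTG, 16 bases before the start, and 2 GCGTG, P4ha2 held 1 and 2, Serpinh1 held 1 ACGTG and no GCGTG, and P4ha3 held neither. Of the 10 genes, 8 had an entry in the promoter table. ACGTG was in 3 of these 8 windows against 16.6% of 32851 promoters of the same length, and GCGTG was in 6 of 8 against 28.2%. Among the 6 were Pcolce and P3h1. The Pcolce window lies inside the gene, since the RefSeq start lies 2380 bases after the deposited one. It holds 83 bases of Pcolce exons, and the P3h1 window holds 48 exon bases of the gene AU022252. The GC content of the 8 windows was 53.6% (Crtap, with 3 GCGTG) to 70.0% (P4ha2), beside a median of 52.4% over all promoters, and its part in these counts was not tested. CCAAT was in 1 of 8 windows against 33.9% of all promoters, GGGCGG in 7 of 8 against 32.7%, TATAAA in 2 of 8 against 12.4%, and the heat shock type motif GAANNTTC in 0 of 8 against 6.69%, with both strands searched for each.

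Each of the 10 genes had a higher mean in Ni than in Con. The log2 fold changes ranged from 0.21 for Plod1 to 0.81 for P4ha2, or 1.16-fold to 1.75-fold, with a median of 0.65, beside a median of -0.01 over all 14624 genes tested. In the quasi-likelihood fit of edgeR, adjusted over all genes by the Benjamini-Hochberg method, 0 of the 10 passed an adjusted p of 0.05 (adjusted p from 0.238 to 0.377), and 0.0% of all genes tested passed it. At an unadjusted p under 0.05, 8 of the 10 were higher and none lower, against 7.59% of all genes higher and 13.4% in either direction. The 3 Ni libraries lay above the 3 Con libraries without overlap for 8 of the 10, against 7.97% of all genes. Without control replicate 3, 9 of the 10 had an adjusted p under 0.05 in edgeR (8.69% of all genes were higher at this level). The median was then 0.93 and all 10 were free of overlap, as were 3345 of all 15044 genes tested in that setting, with Ni above Con. Control replicate 3 was the highest control for all 10, so leaving it out raises each of their fold changes. With any other single library left out, 0 of the 10 had an adjusted p under 0.05. By DESeq2 on all 6 libraries, 6 of the 10 had an adjusted p under 0.05, against 1.46% of all genes higher. Exact permutation tests of single values (two-sided) cannot fall below p = 0.1 in a design of 3 and 3 libraries.

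**Figure D1:**
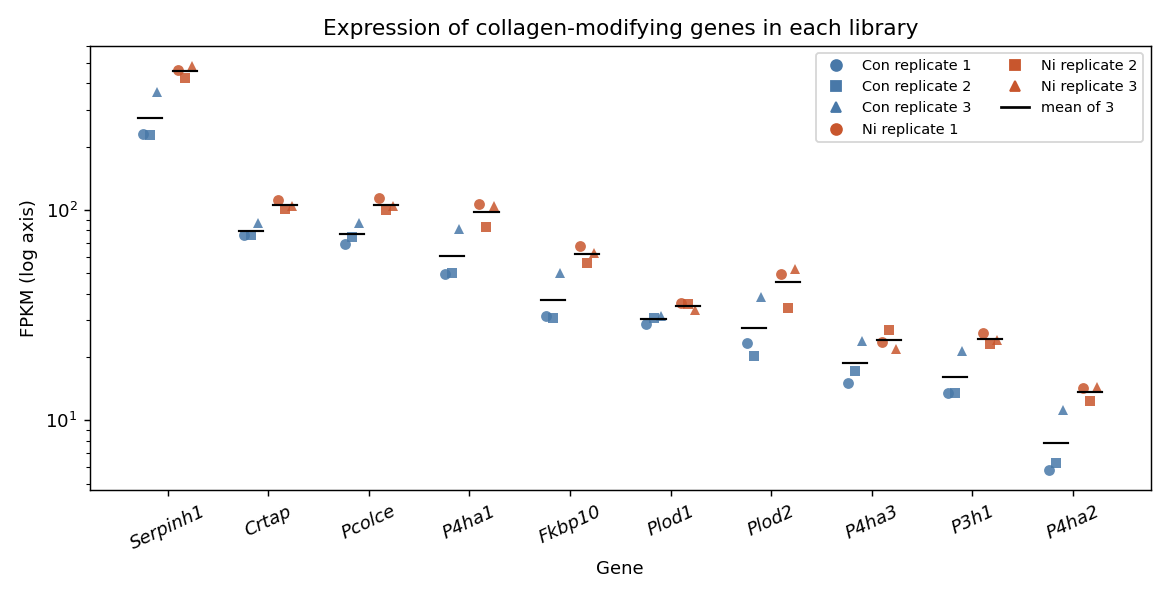
FPKM of the 10 genes in each library on a log axis, with 3 Con libraries in blue and 3 Ni libraries in orange, a marker shape for each replicate number and a line at the mean of 3. Control replicate 3 (blue triangle) is the highest control for all 10 genes, and the groups overlap for P4ha3 and Plod2 and for no other gene.

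Levels are given below as the deposited FPKM, and fold changes are from edgeR on the counts. The FPKM are scaled by a gene length that, for the 10 genes, equals the exon bases of all annotated transcripts together. For P4ha2 these are 6239 bases over 15 transcripts. The order of genes and the shares and ratios of FPKM between genes depend on that length and are approximate. By FPKM, Serpinh1 was the most abundant of the 10 in both groups and P4ha2 the least. In raw counts, P4ha2 exceeded P4ha3 in Ni replicates 1 and 3 and lay below it in the other libraries. In Con the mean FPKM fell in the order Serpinh1, Crtap, Pcolce, P4ha1, Fkbp10, Plod1, Plod2, P4ha3, P3h1 and P4ha2. Only the first and the last steps of that order, Serpinh1 to Crtap and P3h1 to P4ha2, separated neighbours whose libraries did not overlap. In Ni, Plod2 stood before Plod1 and P3h1 before P4ha3, but the libraries of both pairs overlapped, as did those of Crtap and Pcolce and of Pcolce and P4ha1.

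The α subunits of prolyl 4-hydroxylase carry the catalytic site and pair with protein disulfide isomerase, the P4hb product. P4ha1 (ENSMUSG00000019916, chr10:59323296-59373304, + strand), the main α subunit of most cells, was at 49.4, 50.0 and 81.1 FPKM in Con replicates 1 to 3 and at 107, 83.4 and 105 FPKM in Ni replicates 1 to 3. The highest control, replicate 3, came close to the lowest Ni library, replicate 2, but did not reach it. The means were 60.2 ± 18.2 (SD, n = 3) and 98.4 ± 13.0 FPKM, with a log2 fold change of 0.71 ± 0.20 (SE) and an adjusted p of 0.292 by the edgeR fit.

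P4ha2 (ENSMUSG00000018906, chr11:54100095-54131665, + strand), the α subunit known from cartilage and bone cells, was at 5.83, 6.29 and 11.2 FPKM in Con and at 14.2, 12.3 and 14.4 FPKM in Ni. It had the largest log2 fold change of the 10, 0.81 ± 0.24 (SE; edgeR adjusted p = 0.295), and also the largest gap between control replicate 3 and the other controls. Without that library the log2 fold change was 1.17 (edgeR adjusted p = 6.55e-05).

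P4ha3 (ENSMUSG00000051048, chr7:100285520-100319699, + strand), the least studied α subunit, was at 15.0, 17.1 and 23.8 FPKM in Con and at 23.5, 26.8 and 21.8 FPKM in Ni. Here control replicate 3 lay above Ni replicates 1 and 3, and Ni replicate 2, the lowest Ni library for most of the genes, was the highest. The log2 fold change was 0.37 ± 0.17 (SE; edgeR unadjusted p = 0.0544, adjusted p = 0.377), and it was 0.59 without control replicate 3 (adjusted p = 0.00505).

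The proportions of the α subunits were then compared within libraries. P4ha1 made up 69.4% ± 1.18 of the summed α subunit FPKM in Con and 72.1% ± 3.52 in Ni (SD, n = 3 each, exact two-sided permutation test, p = 0.4). P4ha2 made up 8.84% ± 0.712 and 10.02% ± 0.187 (exact permutation p = 0.1), and P4ha3 21.7% ± 1.45 and 17.9% ± 3.49 (exact permutation p = 0.3). The P4ha2 share was narrowly free of overlap, at 9.65% in control replicate 3 and 9.82% in Ni replicate 1. These p-values were not adjusted. The ratio of P4ha2 to P4ha1 was 0.127 ± 0.0101 in Con and 0.139 ± 0.00783 in Ni, and that of P4ha3 to P4ha1 0.313 ± 0.0259 and 0.250 ± 0.0623. Both overlapped (exact permutation p = 0.3 each). P4hb, whose product also serves as a general disulfide isomerase, was at 324 ± 22.1 FPKM in Con and 392 ± 19.7 FPKM in Ni, a log2 fold change of 0.27 (unadjusted p = 0.0342, edgeR adjusted p = 0.350). The ratio of P4hb to the summed α subunits was 3.89 ± 0.794 in Con and 2.89 ± 0.110 in Ni. The controls spanned the difference, with control replicate 3 at 3.00 beside 4.52 and 4.16 for replicates 1 and 2, and Ni replicate 2 at 3.02 (exact permutation p = 0.2).

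Prolyl 3-hydroxylase 1, the P3h1 product, works in a complex with the helper protein CRTAP and the cyclophilin encoded by Ppib. P3h1 (ENSMUSG00000028641, chr4:119232915-119248975, + strand) was at 13.5, 13.4 and 21.5 FPKM in Con and at 26.1, 22.9 and 24.0 FPKM in Ni. All 3 Ni libraries lay above the controls, and control replicate 3 lay nearer to them than to the other controls. This gave a log2 fold change of 0.59 ± 0.18 (SE; edgeR adjusted p = 0.295).

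Crtap (ENSMUSG00000032431, chr9:114375134-114390675, - strand), the noncatalytic member, was at 76.2, 75.8 and 86.6 FPKM in Con and at 112, 102 and 105 FPKM in Ni. Its libraries were tight within each group, with means of 79.5 ± 6.12 and 106 ± 5.33 FPKM (SD, n = 3), and control replicate 3 lay nearer to the other controls than to any Ni library. The log2 fold change of 0.41 ± 0.10 (SE) was of modest size among the 10 but had the smallest p of them, 0.00174 unadjusted and 0.238 adjusted in edgeR.

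The proportion of P3h1 to Crtap differed between groups by less than the controls varied. Their FPKM ratio was 0.201 ± 0.0411 in Con and 0.229 ± 0.00365 in Ni (exact permutation p = 0.4), with control replicate 3 highest of all at 0.248. Ppib had a log2 fold change of 0.19 (edgeR unadjusted p = 0.0652), and its ratio to Crtap was 0.453 ± 0.0133 in Con and 0.387 ± 0.0138 in Ni, without overlap (exact permutation p = 0.1, adjusted p = 0.4 over 8 ratios chosen after values had been seen). Ppib may share reads with processed copies, so its level is uncertain. P3h4, which encodes the noncatalytic partner of lysyl hydroxylase 1, had a log2 fold change of 0.69 (edgeR unadjusted p = 0.0234, adjusted p = 0.334), and P3h3, a sister of P3h1, had 0.59 (unadjusted p = 0.00640, adjusted p = 0.292).

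The lysyl hydroxylases Plod1 and Plod2 differed from each other in how their libraries spread. Lysyl hydroxylase 1, the Plod1 product, acts mainly on helical lysines. Plod1 (ENSMUSG00000019055, chr4:147909753-147936767, - strand) was at 28.7, 30.6 and 31.5 FPKM in Con and at 36.1, 35.7 and 33.3 FPKM in Ni. The groups did not overlap and control replicate 3 lay 0.09 above the mean of the other controls on the log2 scale. The log2 fold change was the smallest of the 10, 0.21 ± 0.09 (SE; edgeR unadjusted p = 0.0514, adjusted p = 0.373), and Plod1 was the only one of the 10 with an adjusted p above 0.05 without control replicate 3 (log2 fold change 0.25, adjusted p = 0.0853).

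Lysyl hydroxylase 2, the Plod2 product, hydroxylates the telopeptides and so sets the type of cross-link. Plod2 (ENSMUSG00000032374, chr9:92542223-92608428, + strand) was at 23.3, 20.2 and 38.5 FPKM in Con and at 49.9, 34.2 and 52.5 FPKM in Ni. Control replicate 3 lay above Ni replicate 2, and the other 2 controls lay below every Ni library. Over all libraries the log2 fold change was 0.73 ± 0.26 (SE; edgeR unadjusted p = 0.0233, adjusted p = 0.334), and it was 1.07 without control replicate 3 (adjusted p = 0.00338). Of its exon bases, 346 (6.42%) overlap an unclassified gene on the opposite strand, and whether reads were counted by strand is not given in the sources used here.

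The ratio of Plod2 to Plod1 FPKM was 0.899 ± 0.291 in Con and 1.31 ± 0.316 in Ni (SD, n = 3 each, exact permutation p = 0.2). It was 1.22 in control replicate 3 and 0.958 in Ni replicate 2, so the groups overlapped. Plod3, which encodes a lysyl hydroxylase that also transfers sugars, had a log2 fold change of 0.35 (edgeR unadjusted p = 0.0324, adjusted p = 0.347). Of the summed Plod FPKM, Plod2 made up 28.5% ± 4.97 in Con and 35.5% ± 6.13 in Ni (exact permutation p = 0.2).

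Serpinh1 encodes HSP47, a collagen-specific chaperone that binds the folded helix and releases it after leaving the endoplasmic reticulum. Serpinh1 (ENSMUSG00000070436, chr7:99345376-99353239, - strand) was at 231, 228 and 363 FPKM in Con and at 462, 424 and 483 FPKM in Ni. The 3 Ni libraries lay above all controls, and control replicate 3 stood between the groups. Means were 274 ± 77.0 and 457 ± 30.0 FPKM (SD, n = 3), with a log2 fold change of 0.74 ± 0.18 (SE; edgeR unadjusted p = 0.00234, adjusted p = 0.248). Without control replicate 3 it was 1.00 (adjusted p = 6.55e-05), and by DESeq2 on all libraries 0.74 (adjusted p = 0.00492).

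Fkbp10 encodes FKBP65, a prolyl isomerase chaperone that also aids telopeptide lysyl hydroxylation. Fkbp10 (ENSMUSG00000001555, chr11:100415697-100424824, + strand) was at 31.2, 30.5 and 50.0 FPKM in Con and at 67.1, 55.9 and 62.7 FPKM in Ni. The pattern of libraries was that of Serpinh1, with no overlap and control replicate 3 between the groups. Fkbp10 had a log2 fold change of 0.73 ± 0.19 (SE; edgeR unadjusted p = 0.00376, adjusted p = 0.268), and it was 1.01 without control replicate 3 (adjusted p = 8.28e-05). Of its exon bases, 193 (6.58%) overlap Nt5c3b on the opposite strand.

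Hspa5, which encodes the general chaperone BiP of the same compartment, was at 245, 227 and 232 FPKM in Con and at 232, 230 and 237 FPKM in Ni, a log2 fold change of -0.01 (edgeR unadjusted p = 0.906). The ratio of Serpinh1 to Hspa5 FPKM was accordingly 1.17 ± 0.344 in Con and 1.96 ± 0.106 in Ni, a log2 difference of 0.78. Each Ni library, at 1.84 to 2.04, lay above each control, at 0.941 to 1.57 (exact permutation p = 0.1, adjusted p = 0.4 over the same 8 ratios).

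Pcolce encodes a secreted protein that binds the procollagen C-propeptide and speeds its removal by BMP1. Pcolce (ENSMUSG00000029718, chr5:137605103-137613784, - strand) was at 68.7, 74.3 and 87.2 FPKM in Con and at 114, 100.4 and 104 FPKM in Ni. The groups did not overlap, and the gap between control replicate 3 and the other controls, 0.29 on the log2 scale, was smaller than for 7 of the other genes. The log2 fold change was 0.46 ± 0.12 (SE; edgeR unadjusted p = 0.00270, adjusted p = 0.249). Of its exon bases, 112 (2.93%) overlap Fbxo24 on the same strand and an antisense gene. Bmp1, which encodes the protease itself, had a log2 fold change of 0.55 (edgeR unadjusted p = 0.0110, adjusted p = 0.306). The ratio of Pcolce to Bmp1 FPKM was 3.62 ± 0.533 in Con and 3.33 ± 0.114 in Ni (exact permutation p = 0.5), and the groups overlapped.

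**Figure D2:**
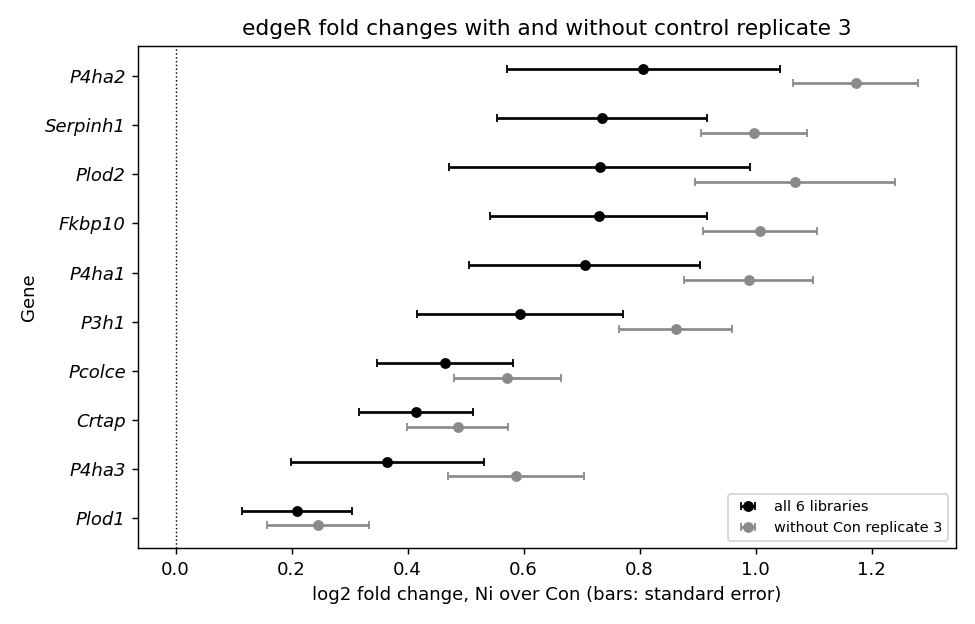
Fitted log2 fold changes (Ni over Con) of the 10 genes from edgeR with all 6 libraries (black) and without control replicate 3 (grey), with bars of 1 standard error. All points lie above 0, and P4ha2 is at 0.81 and 1.17. The grey points lie to the right of the black for every gene, which follows from control replicate 3 being the highest control for all 10.

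The genes were then set against their substrate. Col1a1, which encodes the α1 chain of type I collagen, was at 682, 762 and 1288 FPKM in Con and at 2185, 1747 and 2060.1 FPKM in Ni. Its log2 fold change, 1.13 ± 0.24 (SE; edgeR adjusted p = 0.212), was larger than that of any of the 10 genes. The FPKM ratio of each gene to Col1a1 within a library was lower in all 3 Ni libraries than in all 3 controls for 10 of the 10 genes (exact two-sided permutation p = 0.1 for each, adjusted p = 0.1 over 10). This is a property of most genes, since 85.7% of 14601 genes had a lower ratio to Col1a1 in Ni without overlap, with a median log2 difference of -1.19. Among the 10 genes the log2 differences ranged from -0.97 for Plod1 to -0.31 for P4ha2, with a median of -0.50.

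Serpinh1 was at 0.338, 0.299 and 0.281 of the Col1a1 FPKM in Con and at 0.212, 0.243 and 0.235 in Ni, a log2 difference of -0.41. The differences for Plod2, Fkbp10 and P4ha1 were similar in size, at -0.42, -0.42 and -0.44. P3h1 was at -0.55, Pcolce at -0.71, Crtap at -0.77 and P4ha3 at -0.79. In this ratio control replicate 3 lay nearer to another control than to any Ni library for 7 of the 10 genes, as for Serpinh1 at log2 -1.83 beside -1.74 in control replicate 2 and -2.04 in the nearest Ni library. It lay nearer to a Ni library for Plod1, Crtap and Pcolce, the 3 genes whose own levels in control replicate 3 were closest to the other controls. Since the groups did not overlap in this ratio for any of the 10 genes, leaving out a single library could not reverse a difference.

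**Figure D3:**
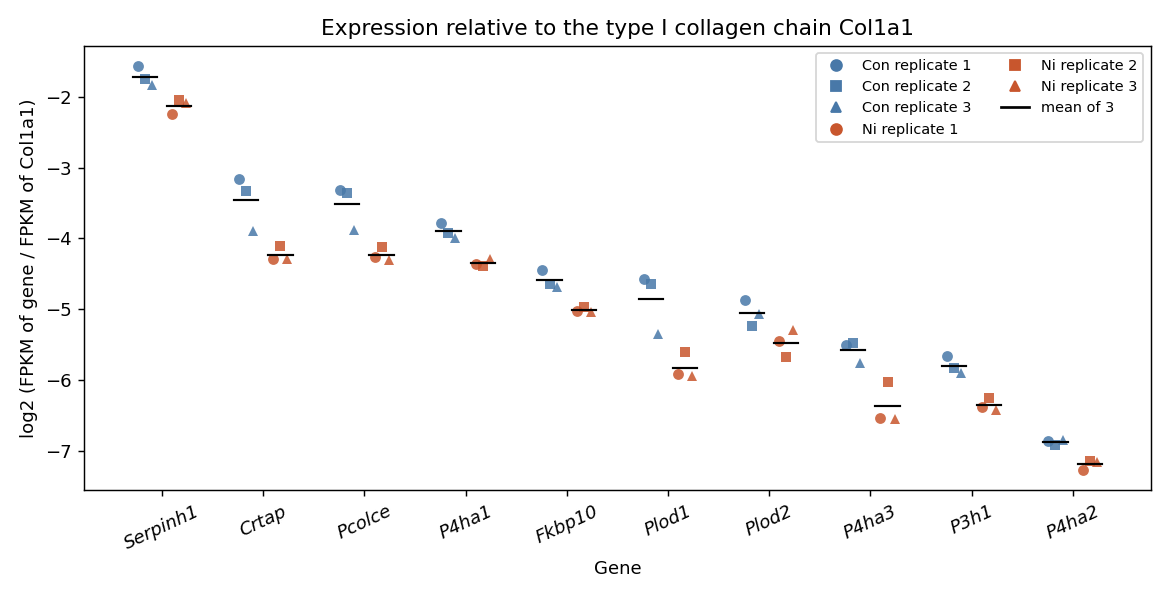
Log2 ratio of each gene's FPKM to that of Col1a1 in the same library, with Con in blue, Ni in orange, a marker shape for each replicate number and a line at the mean of 3. Each gene's Ni points lie below its Con points, and the gap is widest for Plod1 and narrowest for P4ha2.

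Genes acting beside the 10 were counted in lists by step. Of 7 other modifying enzymes, 5 were higher in Ni at an unadjusted p under 0.05, none was lower and the median log2 fold change was 0.44 (over all genes tested, 7.59% were higher and 13.4% passed in either direction). Of 8 other folding factors, 6 were higher and 1 lower, with a median of 0.65. Those with the smallest p were Creb3l1, which encodes a transcription factor for secretory cargo genes including collagen (0.91, edgeR adjusted p = 0.212), Fkbp11, which encodes a prolyl isomerase of secretory cells (0.88, adjusted p = 0.212), and Sparc, which encodes a secreted collagen-binding protein (0.82, adjusted p = 0.257). Tmem38b, which encodes a channel of the endoplasmic reticulum, was the member with a lower level, at -0.38 (unadjusted p = 0.00617). None of these passed an adjusted p of 0.05 in edgeR.

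Of 9 genes for procollagen trimming, 5 passed the filter and 3 of these were higher at an unadjusted p under 0.05, with a median of 0.38. Adamts2, which encodes the N-propeptide protease, was at 0.38 (unadjusted p = 0.0114), and Pcolce2, the sister of Pcolce, was at 1.37 (unadjusted p = 0.0278). Pcolce2 was below 1 FPKM in every control and also in Ni replicate 2, whose 0.70 FPKM lay below the 0.95 FPKM of control replicate 3. Of the 14 genes of collagen export matched and tested, 4 were higher and 1 lower, with a median of 0.15, and the smallest p were those of the retrieval receptor gene Kdelr2 (0.46, edgeR adjusted p = 0.301), the coat gene Sec31a (0.27, adjusted p = 0.308) and Kdelr3 (0.77, adjusted p = 0.309). Of the 11 fibrillar collagen chains, 9 were higher and none lower, with a median of 0.72, among them Col1a2 at 0.97 (unadjusted p = 0.000802) and Col11a2 at 1.94 (unadjusted p = 0.00112).

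Of 15 general chaperones and oxidases of the endoplasmic reticulum, 1 was higher and 1 lower by the same unadjusted threshold, or 13.3%, which is the share over all genes, with a median of 0.01. Hsp90b1 was at 0.29 (unadjusted p = 0.0396), Sdf2l1 at -0.39 (unadjusted p = 0.0161) and Ero1l, an oxidase gene, at 0.59 (unadjusted p = 0.0793). Since P4ha1, P4ha2 and Plod2 are also known HIF targets, 12 other HIF targets were counted. Of these, 9 were higher and 1 lower, with a median of 0.41. The 3 Ni libraries lay above all controls for 3 of the 12 on log2 CPM, against 7.97% of all genes. On FPKM this held for 5 of the 12, against 1192 of 14624 genes. Vegfa and Car9 were free of overlap on FPKM only. Vegfa was at 41.73 FPKM in control replicate 3 and 41.93 in Ni replicate 3, and Car9 at 4.409 in control replicate 3 and 4.417 in Ni replicate 1. The smallest p were those of Pdk1, a kinase gene of glucose metabolism (0.59, edgeR adjusted p = 0.262), the oxygen sensor gene Egln1 (0.43, adjusted p = 0.295) and the mitophagy gene Bnip3 (0.70, adjusted p = 0.306), and Ndrg1 was the lower one at -1.01 (unadjusted p = 0.0309). Without control replicate 3, edgeR's adjusted p was under 0.05 and the level higher for 6 of 7 modifying enzymes, 6 of 8 folding factors, 3 of 5 trimming genes, 6 of 14 export genes, 9 of 11 collagen chains, 2 of 15 general chaperones and 9 of 12 HIF targets, and it was lower for 1 gene each of the folding, export, general chaperone and HIF lists. By DESeq2 on all 6 libraries the adjusted p was under 0.05 for fewer, all higher, namely 1 of 7 modifying enzymes, 3 of 8 folding factors, 0 of 5 trimming genes, 1 of 14 export genes, 6 of 11 collagen chains, 0 of 15 general chaperones and 2 of 12 HIF targets. Over all genes tested, 8.69% were higher at this level in edgeR without control replicate 3, and 1.46% were by DESeq2.

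**Figure D4:**
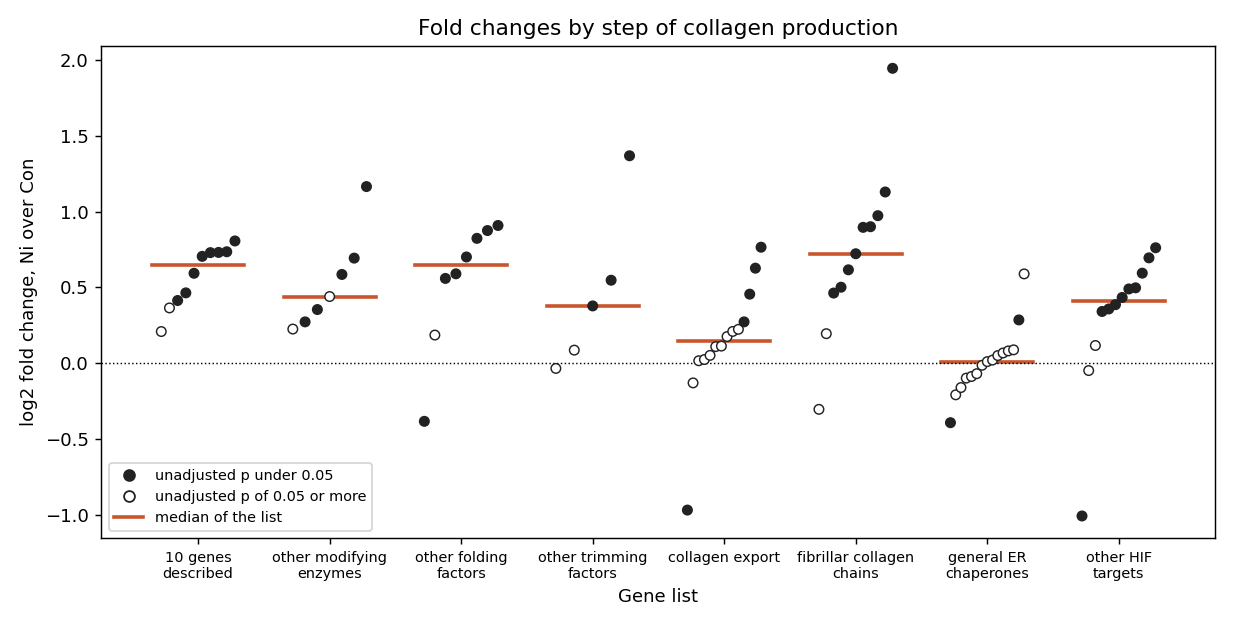
Log2 fold changes (Ni over Con, edgeR, 6 libraries) of the 10 genes and of each list of neighbouring genes, with filled points for an unadjusted p under 0.05, open points otherwise and a bar at the median of the list. The medians are 0.65 for the 10 genes, 0.72 for fibrillar collagen chains and 0.01 for general chaperones of the endoplasmic reticulum (ER).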

How the data were processed

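RNA-seq libraries were made from fragmented mRNA of mouse BMSC cultures, 3 Con and 3 Ni. The authors deposited raw read counts per gene, FPKM values of the same genes, and an annotation table with coordinates and a gene length (bases). The submitters' processing notes name the build GRCm38, and the aligner, the counting tool and the strand setting are not given in the sources used here. Groups followed the sample labels. In edgeR 4.0.16 (R 4.3.3), genes were kept by filterByExpr, TMM factors were applied, and a robust quasi-likelihood model (prior count 0.125) gave p-values, which were adjusted by the Benjamini-Hochberg method over 14624 genes. The code was first tested on simulated data. Log2 CPM used a prior count of 2. DESeq2 1.42.0 and limma 3.58.1, on log2(FPKM + 1) and log2(FPKM + 0.1), were alternatives, beside other scalings, filters, a replicate block and each library left out. Ratios and shares of FPKM were compared by exact two-sided permutation tests (scipy 1.17.1). No 2 libraries of a group were duplicates, at a chi-square per degree of freedom of 4.56 or more. Gene coordinates matched GENCODE M21. Named genes were the 10, fixed partners, and up to 3 genes per list with the smallest p, while Hspa5, Tmem38b, Ndrg1 and the 8 ratios without Col1a1 were chosen after values had been seen. The 10 genes and the lists were chosen with earlier results of these data known. The list symbols Ctage5, Ero1a and Ero1b were not matched.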

Additional observations from a re-analysis of the deposited data

How the results depend on the processing

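No fold change of the 10 genes reversed in 170 values over 17 alternatives, of which 37 had an adjusted p under 0.05. The number of the 10 with an adjusted p under 0.05, 0 with all 6 libraries in edgeR, was 8 with no filter on low counts, 6 with DESeq2 and 4 with a replicate block. Over all genes these settings called 1027 of 25876 (660 higher in Ni), 256 of 14337 (209 higher) and 315 of 14624 (227 higher). The 8, the 6 and the 4 were all higher in Ni. These 4 were P4ha1, Plod2, Serpinh1 and Fkbp10. Whether the replicate numbers pair the libraries is not given in the sources used here. The correlations of same-numbered libraries' deviations were 0.0104, 0.257 and 0.138. They cannot decide this, since differently numbered libraries were not compared. With control replicate 3 and Ni replicate 2 both left out, an alternative chosen after seeing the data, the number of the 10 called was 10. Of 14825 genes 3843 were called, 2000 of them higher in Ni, and the median log2 fold change of the 10 was 0.97. With each library left out in turn it ranged from 0 to 9 and the genes called from 0 to 2283, the highest without control replicate 3, and 13 genes and 0 of the 10 were called without Ni replicate 2. Of all genes, 1963 had an unadjusted p under 0.05, 3057 with no filter, 5332 with both libraries left out, and 868 to 4125 with each library left out, the highest again without control replicate 3. The number of the 10 at this level was 7 to 10 over all alternatives, Plod1 and P4ha3 being near the threshold. The causes were not tested.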
